A study of Mus musculus with 4 samples.

Results

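Chondrocytes and osteoblasts are set apart by small groups of transcription factors, and 9 of them were followed here in cultured mouse articular chondrocytes: Sox9, Sox5, Sox6, Runx1, Runx2, Runx3, Sp7, Dlx5 and Mef2c. They were chosen by gene symbol, 9 of the 55141 genes with deposited TPM (reads divided by gene length and scaled so that every library has the same total), and all 9 had reads in all libraries. RNA was sequenced from the 3′ ends of mRNAs in 4 libraries, 1 per condition, of femoral head chondrocytes isolated with collagenase at 3 weeks of age and grown to confluence in serum. The conditions were WT (labelled wild type), Cart-miR-23clus KO (both miR-23a/b clusters flox/flox, with Col2a1-cre), miR-26a KO (miR-26a -/-), and miR-26a KO transfected with a double-stranded miR-26a mimic. The first 3 are labelled C57BL/6 and the mimic culture C57BL6/J.

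Several features of the groups bear on what they model. Cre under the Col2a1 promoter acts in chondrocytes and their progenitors, and which cells of the culture had lost the clusters was not measured. The labels call the reference culture wild type, while the study calls it wild type in some places and Control in others. A negative control siRNA is named beside the mimic, but whether it was given to the miR-26a KO culture is not stated. Mature miRNAs are not read by these libraries, so the miRNAs are not checked from these files. The study measured the cluster miRNAs separately by real-time PCR in articular chondrocytes, and reported lower levels in Cart-miR-23clus KO than in Control. Those measurements were not analysed here.

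SOX9 switches on the cartilage matrix genes, and SOX5 and SOX6 join it on the same enhancers. RUNX2 drives hypertrophy of chondrocytes and the commitment of osteoblasts, SP7 acts after it in osteoblasts, and DLX5 and MEF2C work on RUNX2 or beside it. RUNX1 and RUNX3 bind the same DNA motif as RUNX2 through the shared partner CBFB. The miR-23a/b clusters each encode members of the miR-23, miR-27 and miR-24 families, and RUNX2 and SP7 have been described as targets of the miR-23a cluster.

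The seeds of these miRNAs, bases 2 to 8 from the 5′ end, are what pairs with a target mRNA, and they are given in capitals below in the mature sequences from RefSeq. They are shown because the knockouts were designed to delete these miRNAs and the mimic to supply one of them.
miR-23a-3p: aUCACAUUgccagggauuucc
miR-27a-3p: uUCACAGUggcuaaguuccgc
miR-24-3p: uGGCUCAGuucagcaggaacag
miR-26a-5p: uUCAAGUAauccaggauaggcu
The sense strand of the mimic was identical to miR-26a-5p over its 22 bases.

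The annotated 3′ UTRs of the 9 genes were searched for the 7 bases that pair with each seed. Of the 9, 5 held a match to a seed of the clusters (Sox5, Sox6, Runx1, Runx2 and Mef2c), with 8 matches in all, against 37.1% of 20659 annotated 3′ UTRs of mouse genes. Those 5 3′ UTRs were long, between 3904 and 6046 bases, and among 3′ UTRs within 20% of the same length the share with such a match was already 75.7% for Runx2, 78.1% for Runx1, 78.6% for Mef2c, 80.9% for Sox5 and 84.7% for Sox6. Sox9 (2250 bases), Runx3 (2158), Sp7 (1531) and Dlx5 (701) held none of them. Matches to miR-26a stood in Runx3 and Mef2c, against 9.84% of all 3′ UTRs and 13.7% and 28.5% of those of their length.

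The sites of the RUNX genes and Mef2c are printed with 22 bases each on the mRNA strand, in GRCm38 coordinates, with the seed match in capitals, because these genes differed most between libraries or have been described as targets.
Runx1, miR-23a match, chr16:92604571-92604592, minus strand: gacccaaaccactgAATGTGAt
Runx1, miR-27a match, chr16:92605549-92605570, minus strand: aatcccggagggaaACTGTGAa
Runx2, miR-23a match, chr17:44606893-44606914, minus strand: attccttcaggcatAATGTGAt
Runx2, miR-27a match, chr17:44606107-44606128, minus strand: tccttggaggatgtACTGTGAt
Runx3, miR-26a match, chr4:135177655-135177676, plus strand: ctactttaaagtgcTACTTGAa
Mef2c, miR-26a match, chr13:83664180-83664201, plus strand: cgaccgacctgcttTACTTGAt
Mef2c, miR-23a match, chr13:83664636-83664657, plus strand: ttcccttctcttggAATGTGAa
The map of seed matches sets them by distance from the stop codon. The match of Runx1 to miR-27a began 99 bases after the stop codon, and the match of Runx3 to miR-26a stood 322 bases before the end of its 3′ UTR. A match is a description of these letters only.

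**Figure D1:**
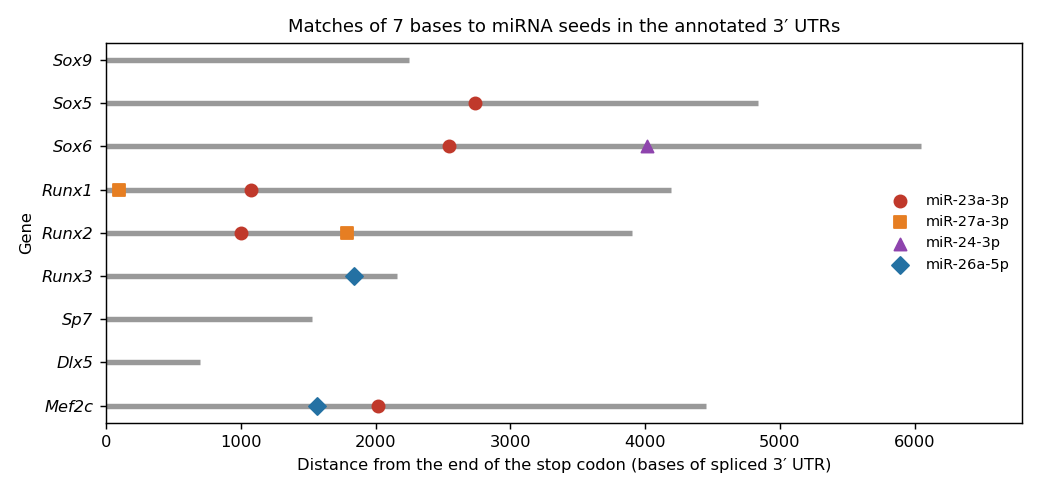
Matches of 7 bases to the seeds of miR-23a-3p, miR-27a-3p, miR-24-3p and miR-26a-5p (coloured symbols) in the annotated 3′ UTR of each gene (grey line), by distance in bases from the end of the stop codon. The lines of Sox9, Sp7 and Dlx5 carry no symbol, and Mef2c alone carries both a miR-23a and a miR-26a match.

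Reads counted on genes numbered 1505805 for WT, 1336496 for Cart-miR-23clus KO and 1369924 for miR-26a KO, and 1449246 were recovered from the TPM of the mimic library. With 1 library per condition there was no replicate check and no test between conditions. Each ratio is therefore given with an exact Clopper-Pearson interval at 95% on the reads, which covers counting error only. A ratio of TPM was counted when it lay above 2 or below 0.5 with at least 20 reads in the 2 libraries together. All 9 genes met the read limit in each of the 3 comparisons.

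The label of articular chondrocyte was checked against marker genes. Cartilage markers were abundant, with Col2a1, the main cartilage collagen, at 7062 TPM in WT. Bone genes were abundant too, with Col1a1 at 6328 TPM and Ibsp at 5063 TPM in WT. The 14 macrophage markers summed to 1005 TPM in WT, 1235 TPM in Cart-miR-23clus KO, 383 TPM in miR-26a KO and 675 TPM in the mimic library, while 6 lymphocyte markers had 0 reads in every library, 7 endothelial markers summed to at most 2.15 TPM and 7 skeletal muscle markers to at most 11.0 TPM. In such cultures fewer cells of a type and less RNA per cell cannot be told apart.

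Sox9 was by far the most abundant of the 9 factors and varied least between libraries. It had 500 TPM (2158 reads) in WT, 468 TPM (1838 reads) in Cart-miR-23clus KO, 496 TPM (1953 reads) in miR-26a KO and 463 TPM (1949 reads) in the mimic library. The highest level was 1.08 times the lowest. Its gene lies at chr11:112782224-112787760 on the plus strand of GRCm38. Sox9 stood above the next factor in every library, in TPM and per read. Per read, Sox6 was next in WT and in both knockouts. Sox9 had 10.2 times as many reads as Sox6 in WT (95% counting interval 8.84 to 11.8) and 10.6 times as many in Cart-miR-23clus KO (9.09 to 12.5). The ratio was higher in miR-26a KO, at 13.4 (11.3 to 15.9), and in the mimic library, at 14.9 (12.5 to 17.9).

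Its partners Sox5 and Sox6, which lack an activation domain of their own, were far lower. Sox6 (chr7:115470872-116038796, minus strand) had 23.4 TPM (212 reads) in WT, 21.0 TPM (173 reads) in Cart-miR-23clus KO, 17.7 TPM (146 reads) in miR-26a KO and 14.8 TPM (131 reads) in the mimic library. Sox6 was thus highest in WT and lowest in the mimic library, 1.58 times apart. Sox5 (chr6:143828425-144781977, minus strand) had 8.06 TPM (61 reads) in WT, 9.75 TPM (67 reads) in Cart-miR-23clus KO, 10.3 TPM (71 reads) in miR-26a KO and 8.41 TPM (62 reads) in the mimic library, and the interval of its ratio included 1 in all 3 comparisons. Sox9 made up between 93.8% and 95.2% of the summed TPM of the SOX trio, a share that rests on division by length.

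Runx2, the master regulator of osteoblasts, was among the less variable factors. Runx2 (chr17:44495987-44814797, minus strand) had 16.0 TPM (47 reads) in WT, 12.3 TPM (33 reads) in Cart-miR-23clus KO, 16.8 TPM (45 reads) in miR-26a KO and 19.5 TPM (56 reads) in the mimic library. It was lowest in Cart-miR-23clus KO and highest in the mimic library, 1.58 times apart. On the opposite strand the annotation places Runx2os1, with between 8 and 14 reads, and Supt3, with between 15 and 24 reads. The strand setting of the counting is not given in the sources used here, so reads of these genes and of Runx2 may not be fully separated.

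Runx3, a relative of Runx2 that acts with it in chondrocyte maturation, varied more. Runx3 (chr4:135120652-135177990, plus strand) had 30.8 TPM (125 reads) in WT, 12.8 TPM (47 reads) in Cart-miR-23clus KO, 21.9 TPM (81 reads) in miR-26a KO and 34.4 TPM (136 reads) in the mimic library. Runx1 (chr16:92601466-92826149, minus strand), best known from blood formation and also present in cartilage precursors, had 3.59 TPM (22 reads) in WT, 6.47 TPM (36 reads) in Cart-miR-23clus KO, 3.41 TPM (19 reads) in miR-26a KO and 3.18 TPM (19 reads) in the mimic library. Runx3 was therefore lowest, and Runx1 highest, in the same library, Cart-miR-23clus KO.

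The make-up of the RUNX family differed accordingly. Runx3 gave 64.4% of the 194 RUNX reads in WT (exact Clopper-Pearson 95% interval 57.3% to 71.2%) but 40.5% of the 116 found for Cart-miR-23clus KO (31.5% to 50.03%). It gave 55.9% of 145 reads in miR-26a KO (47.4% to 64.1%) and 64.5% of 211 reads in the mimic library (57.6% to 70.9%). The share of Runx1 was 11.3% in WT (7.24% to 16.7%) and 31.0% in Cart-miR-23clus KO (22.8% to 40.3%), with 13.1% in miR-26a KO (8.08% to 19.7%) and 9.00% with the mimic (5.51% to 13.7%). Runx2 gave between 24.2% and 31.0%. The shares of Runx1 and Runx3 were thus closest to each other in Cart-miR-23clus KO.

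Sp7, also called osterix, is needed for osteoblast formation. Sp7 (chr15:102356606-102367182, minus strand) had 49.8 TPM (161 reads) in WT, 16.7 TPM (49 reads) in Cart-miR-23clus KO, 28.2 TPM (83 reads) in miR-26a KO and 32.0 TPM (101 reads) in the mimic library. WT stood above the 3 other libraries and Cart-miR-23clus KO below them. In TPM, Sox9 was 10.0 times Sp7 in WT and 28.1 times in Cart-miR-23clus KO, against 17.6 times in miR-26a KO and 14.5 times with the mimic. Per read the ratios, in the same order of libraries, were 13.4, 37.5, 23.5 and 19.3.

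Mef2c, which promotes chondrocyte hypertrophy and is held back by HDAC4, showed the widest range of the 9. Mef2c (chr13:83504034-83667080, plus strand) had 68.8 TPM (186 reads) in WT, 18.3 TPM (45 reads) in Cart-miR-23clus KO, 32.5 TPM (80 reads) in miR-26a KO and 31.9 TPM (84 reads) in the mimic library. The highest level was 3.75 times the lowest, against 2.98 times for Sp7 and 2.70 times for Runx3. The libraries stood in the order WT, both miR-26a KO cultures, then Cart-miR-23clus KO.

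Dlx5, a homeobox factor of early osteoblasts, was the most thinly covered. Dlx5 (chr6:6877805-6882085, minus strand) had 8.68 TPM (12 reads) in WT, 9.55 TPM (12 reads) in Cart-miR-23clus KO, 17.5 TPM (22 reads) in miR-26a KO and 14.8 TPM (20 reads) in the mimic library. Both miR-26a KO cultures lay above the other 2 libraries, but the 95% Poisson intervals of all 4 overlapped, from 4.48 to 15.2 TPM in WT and from 10.9 to 26.4 TPM in miR-26a KO.

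**Figure D2:**
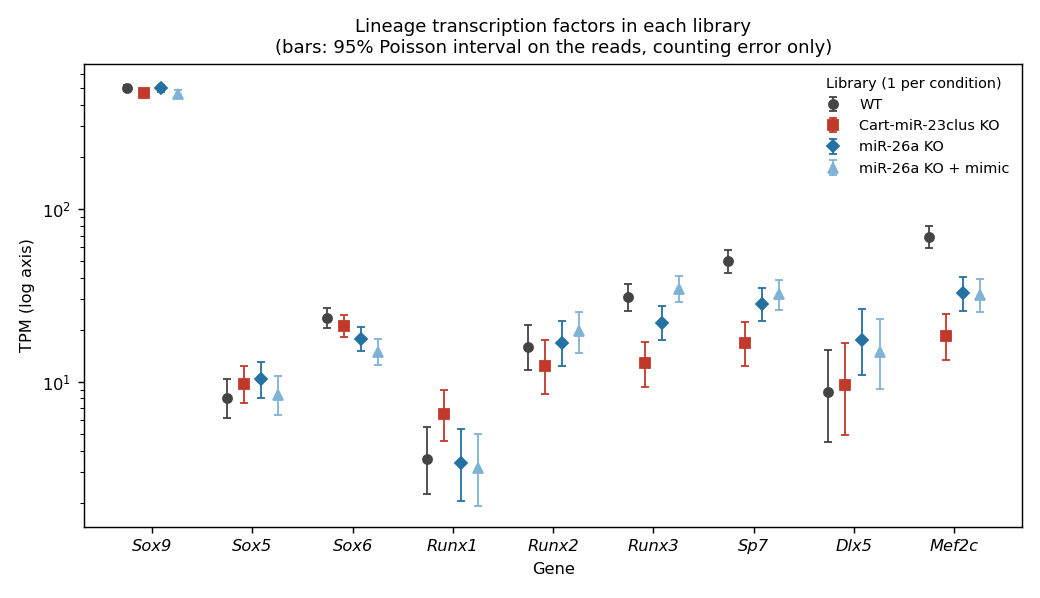
Level of each factor in TPM (log axis) in the 4 libraries, 1 per condition, with bars for the 95% Poisson interval on the reads. Sox9 lies between 463 and 500 TPM in every library, while the Cart-miR-23clus KO squares of Runx3, Sp7 and Mef2c lie below the other 3 libraries.

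The order of the factors changed below Sox9. Per length, on the TPM scale, the WT order was Sox9, Mef2c, Sp7, Runx3, Sox6, Runx2, Dlx5, Sox5 and Runx1, and the neighbours Runx2 and Dlx5, and Dlx5 and Sox5, did not differ beyond counting error. In Cart-miR-23clus KO the order was Sox9, Sox6, Mef2c, Sp7, Runx3, Runx2, Sox5, Dlx5 and Runx1, and no neighbours below Sox9 differed beyond counting error. Division by length does not suit reads taken only from 3′ ends, and counted per read Sox6 stood second in both of these libraries.

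In Cart-miR-23clus KO against WT, Mef2c, Sp7 and Runx3 were past 2-fold lower, and the other 6 factors, among them the osteoblast factors Runx2 and Dlx5 and the SOX trio, were not. Mef2c had a ratio of 0.266 (95% interval 0.188 to 0.371), Sp7 of 0.335 (0.238 to 0.464) and Runx3 of 0.414 (0.290 to 0.583). These 3 of 9 lay below 0.5, where 4.38% of the 9573 genes with enough reads did, and 0 of 9 lay above 2, where 4.73% did. The median ratio of the 9 was 0.898.

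The remaining 6 factors stayed within 2-fold. Runx1 was 1.80 times higher (1.03 to 3.21), and it was the 1 factor whose interval lay above 1, as for 11.8% of genes. Sox9, with a ratio of 0.938 (0.881 to 0.998), joined the 3 lower factors to make 4 with an interval below 1, as for 12.3% of genes. The interval of Sox9 included 1 when reads were scaled by library totals, TMM or DESeq2 factors, which left 3 factors below 1. The intervals of Sox5 at 1.21 (0.842 to 1.74), Sox6 at 0.898 (0.731 to 1.10), Runx2 at 0.773 (0.480 to 1.23) and Dlx5 at 1.10 (0.452 to 2.68) included 1. The interval of Runx2 still held a decrease beyond 2-fold, so a difference was not detectable at this depth and is not shown to be absent.

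The size of these ratios depended on the reference library. Against miR-26a KO in place of WT, the Cart-miR-23clus KO ratios were 0.564 (0.382 to 0.823) for Mef2c, 0.592 (0.407 to 0.853) for Sp7 and 0.582 (0.397 to 0.843) for Runx3, so that 0 of the 9 were past 2-fold. Of 9453 genes with enough reads, 3.99% lay above 2 and 3.43% below 0.5 with this reference, so a count of 0 was near the share over all genes. Against the mimic library, 1 factor was below 0.5, Runx3 at 0.371 (0.260 to 0.520), where 3.91% of 9534 genes lay, and 1 above 2, Runx1 at 2.03 (1.14 to 3.75), where 3.2% lay. Against miR-26a KO the intervals of Mef2c, Sp7 and Runx3 lay below 1, as for 10.7% of genes, and that of Runx1, which was 1.90 times higher (1.06 to 3.51), above 1, as for 8.26%. Against the mimic library the intervals of these 3 and of Runx2, at 0.632 (0.398 to 0.989), lay below 1, as for 11.5% of genes, and those of Runx1 and of Sox6, at 1.42 (1.12 to 1.79), above 1, as for 8.12%.

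Set beside the seed matches, of the 5 factors with a match to a seed of the clusters 1 had an interval above 1 (Runx1), 1 below 1 (Mef2c) and 3 including 1 (Sox5, Sox6 and Runx2). Of the 4 without a match, 3 had an interval below 1 (Sox9, Runx3 and Sp7) and 1 included 1 (Dlx5), with Sox9 moving to the latter under the 3 read scalings. These are counts of few genes, and the part of the miRNAs in the differences was not tested.

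In miR-26a KO against WT, which shares the WT library with the comparison above, Mef2c was again lower and Dlx5 stood at the limit. Mef2c had a ratio of 0.472 (0.359 to 0.617), the 1 factor below 0.5, where 3.5% of 9545 genes lay. Dlx5 had a ratio of 2.01 (0.954 to 4.46) on 34 reads in both libraries, the 1 factor above 2, where 3.88% of genes lay, and its interval included 1. Sp7 at 0.566 (0.429 to 0.742), Runx3 at 0.712 (0.531 to 0.949) and Sox6 at 0.756 (0.608 to 0.938) were lower within 2-fold.

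With Mef2c, 4 factors had an interval below 1, as for 8.59% of genes, and 0 had one above 1, as for 11.1%. The intervals of Sox9 at 0.994 (0.934 to 1.06), Runx2 at 1.05 (0.683 to 1.62), Runx1 at 0.948 (0.486 to 1.84) and Sox5 at 1.28 (0.895 to 1.83) included 1. Both factors with a miR-26a seed match, Runx3 and Mef2c, were among the 4 lower ones, as were 2 of the 7 without a match, Sp7 and Sox6. These are counts of few genes, and the part of miR-26a in the differences was not tested.

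When the mimic library was set against miR-26a KO, Runx3 was the factor that differed most. Runx3 was 1.57 times higher (1.18 to 2.09), the 1 factor with an interval above 1, as for 5.07% of genes. Sox9 at 0.932 (0.875 to 0.993) was the 1 with an interval below 1, as for 5.05%, and its interval included 1 under each of the 3 read scalings. None of the 9 was past 2-fold, where 1.89% of 9471 genes lay above 2 and 1.46% below 0.5. Mef2c, which also holds a miR-26a match, had a ratio of 0.981 (0.714 to 1.35) and stayed at 0.463 of its WT level (0.354 to 0.603). Runx3 in the mimic library was 1.12 times its WT level (0.869 to 1.43).

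**Figure D3:**
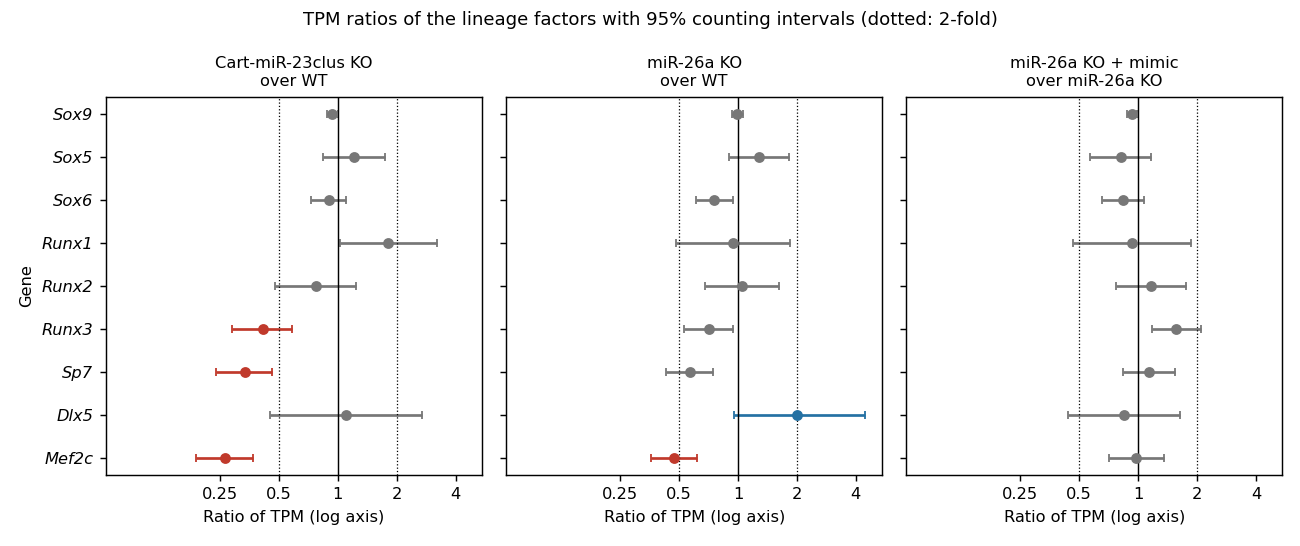
Ratio of TPM of each factor (log axis) in the 3 comparisons, with bars for the 95% counting interval, a solid line at 1 and dotted lines at 2-fold. Red points lie below 0.5 (Mef2c, Sp7 and Runx3 in Cart-miR-23clus KO, Mef2c in miR-26a KO), the blue point of Dlx5 lies just above 2 with an interval that includes 1, and no point of the mimic comparison is past 2-fold.

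Genes that the factors are known to act on were described from lists chosen with earlier results of these data known, so their counts are descriptions only. They are to be read against the shares of all genes past 2-fold given above. Those were 4.38% below 0.5 and 4.73% above 2 in Cart-miR-23clus KO, and 3.5% and 3.88% in miR-26a KO, both to WT. Of 10 RUNX2 and SP7 target genes of bone with enough reads, 7 were below 0.5 and 1 above 2 in Cart-miR-23clus KO against WT, with a median log2 ratio of -2.32 where the median of all genes was 0. Ibsp, a protein of mineralising bone matrix, went from 5063 to 842 TPM, a ratio of 0.166 (0.158 to 0.175), and Col1a1, the main bone collagen, had a ratio of 0.207 (0.202 to 0.212). Ifitm5, a membrane protein of osteoblasts, had 34 reads in WT and 0 in Cart-miR-23clus KO. Spp1, the bone matrix protein osteopontin, went the other way, from 773 to 1613 TPM.

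In miR-26a KO these bone genes had a smaller median difference from WT, at -0.58 on the log2 scale, and 2 of 10 were below 0.5. Mmp13, the collagenase of hypertrophic cartilage, had a ratio of 0.650 (0.596 to 0.709) in Cart-miR-23clus KO and 1.72 (1.61 to 1.84) in miR-26a KO, both against WT. Of the 5 hypertrophic chondrocyte genes, 3 were below 0.5 in Cart-miR-23clus KO (Ihh, Pth1r and Panx3), while Col10a1, the collagen of hypertrophic cartilage, was 1.55 times higher (1.20 to 2.01). Their median log2 ratio to WT was -1.88 for Cart-miR-23clus KO and -0.79 for miR-26a KO, and that of the mimic culture to miR-26a KO was 0.35.

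SOX9 target genes of the cartilage matrix were mostly lower than in WT, and most stayed within 2-fold. In Cart-miR-23clus KO, 12 of the 16 genes had a ratio under 1 and 4 over 1 (Col9a2, Col9a3, Matn3 and Comp), with a median log2 ratio of -0.35. There 3 were below 0.5 (18.75%, against 4.38% of all genes with enough reads) and 0 above 2. In miR-26a KO, 15 had a ratio under 1 and 1 over 1, with a median of -0.49. There 2 were below 0.5 (12.5%, against 3.5% of all genes with enough reads) and 0 above 2. Col2a1 had ratios of 0.772 (0.760 to 0.785) and 0.788 (0.776 to 0.801). Matn1, a matrilin of the cartilage matrix, had ratios of 0.402 (0.372 to 0.434) and 0.350 (0.323 to 0.379). Ucma, a secreted cartilage protein, had ratios of 0.399 (0.363 to 0.439) and 0.430 (0.392 to 0.472), and Comp, a matrix protein of cartilage, was higher at 1.70 (1.50 to 1.92) and 1.19 (1.04 to 1.36). Set against miR-26a KO, the mimic culture had a median log2 ratio of 0.01, with 8 ratios over 1 and 8 under 1. Of these 16 genes, 1 was below 0.5, as were 1.46% of all genes with enough reads, and 0 were above 2. That gene was Matn1, at a ratio of 0.487 (0.431 to 0.549), and Ucma stood at 0.705 (0.625 to 0.794).

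Partners of the factors were mostly within 2-fold. Of 15 partners and co-repressors with enough reads, 2 were below 0.5 and 1 above 2 in Cart-miR-23clus KO, against 0 and 0 in miR-26a KO. Hdac4, the deacetylase that represses MEF2C and RUNX2, had 42 reads in WT and 14 in Cart-miR-23clus KO, a ratio of 0.367 (0.185 to 0.686). Ep300, a shared coactivator, was 2.20 times higher (1.35 to 3.67). Cbfb, the partner of all RUNX proteins, went from 71.7 to 42.8 TPM in Cart-miR-23clus KO, a ratio of 0.596 (0.472 to 0.750), against 0.890 (0.725 to 1.09) in the miR-26a KO culture.

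Of 7 paralogues of the factors with enough reads, 1 was below 0.5 (Dlx3) and 0 above 2 in Cart-miR-23clus KO against WT, and the median log2 ratio over 11 paralogues was -0.16. Ratios were 0.892 (0.774 to 1.03) for Sox4, 0.944 (0.474 to 1.86) for Sox12, 1.11 (0.852 to 1.45) for Sp1 and 0.759 (0.407 to 1.39) for Sp3, all with an interval that included 1. Mef2d had a ratio of 0.551 (0.415 to 0.726) and Mef2a of 0.778 (0.579 to 1.04) in Cart-miR-23clus KO, against 0.266 for Mef2c. Dlx3, a DLX factor of osteoblasts, had 21 reads in WT, 2 reads in Cart-miR-23clus KO, 3 reads in miR-26a KO and 5 reads in the mimic library, while Dlx5 had a ratio of 1.10 (0.452 to 2.68) in Cart-miR-23clus KO. Of 27 other skeletal transcription factors with enough reads, 1 was above 2 and 1 below 0.5 in Cart-miR-23clus KO: Arid5b, a coactivator of SOX9, at 2.09 (1.61 to 2.73), and Tcf7, a WNT effector, at 0.163 (0.0415 to 0.468). These counts were near the shares over all genes.

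**Figure D4:**
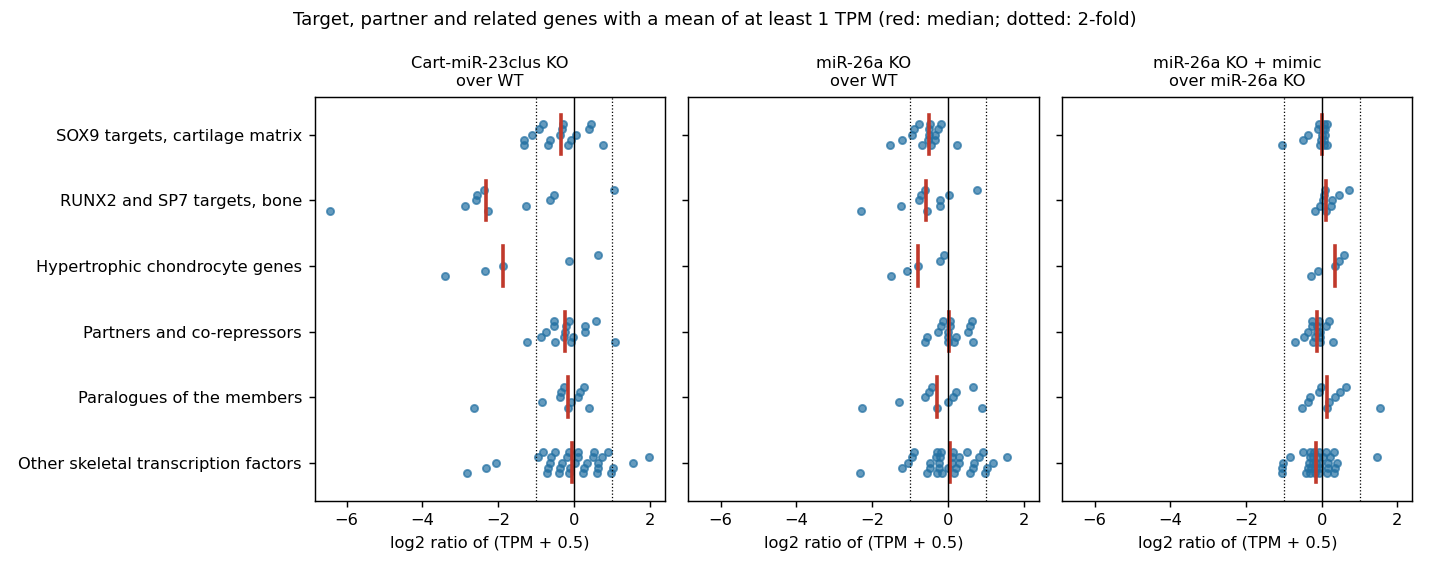
log2 ratio of (TPM + 0.5) of the genes of each list whose 4 libraries averaged 1 TPM or more, with 1 point per gene, a red bar for the median, and dotted lines at 2-fold. In Cart-miR-23clus KO the medians of the bone and hypertrophic lists lie left of 0, at -2.32 and -1.88. In each of them 1 gene lies right of 0, Spp1 and Col10a1. The 34 other skeletal transcription factors are centred at -0.04.

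Other cell markers moved with the libraries as well. The 4 dividing cell markers summed to 33.9 TPM in WT, 81.1 TPM in Cart-miR-23clus KO, 87.9 TPM in miR-26a KO and 78.2 TPM in the mimic library, and all 4 were past 2-fold higher in both knockouts. For Mki67 in Cart-miR-23clus KO the ratio of 2.20 (0.984 to 5.27) rested on 20 reads against 10 in WT, and its interval included 1. The 6 adipocyte markers summed to 83.9 TPM in WT, 327 TPM in Cart-miR-23clus KO, 100.01 TPM in miR-26a KO and 133 TPM in the mimic library. Fabp4 led them in Cart-miR-23clus KO, with Cidec and Lep at 0 there and in WT. Over the 13 macrophage markers averaging 1 TPM or more, the median log2 ratio to WT was 0.38 for Cart-miR-23clus KO and -1.54 for miR-26a KO. Of the 9 with enough reads in miR-26a KO and WT together, 7 were below 0.5. The 6 fibroblast markers summed to 2489 TPM in WT, 1754 TPM in Cart-miR-23clus KO, 2856 TPM in miR-26a KO and 2689 TPM in the mimic library. They did not differ in one direction: in Cart-miR-23clus KO 3 were higher and 3 lower than in WT, with a median log2 ratio of -0.02. In miR-26a KO 4 were higher and 2 lower, with a median of 0.21. The part of these cell types in the differences was not tested.

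Genes with the most similar pattern over the 4 libraries were sought among 6822 genes with at least 100 reads, by the root mean square difference of centred log2(TPM + 0.5). For Sp7 they were Tgfbr2, Ptprd and Ptch1, at 0.08, 0.08 and 0.09, and 5 genes lay within 0.1. For Runx2 they were Eaf1, Tecpr1 and Ptprm at 0.02 each, with 202 genes within 0.1, and for Sox9 Mrpl37, Ogg1 and Nup62, with 964 genes within 0.1. Most genes with enough reads stayed within 2-fold in each comparison. The number within 0.1 therefore depends on how far a profile itself varies, and is no measure of how particular it is. For Runx3 and Mef2c, which were added to this search later, the nearest were Pla2g5, Porcn and Rbp4 for Runx3, with 3 genes within 0.1, and for Mef2c the 1 gene within 0.1 was Mme, with 970 TPM in WT, 276 TPM in Cart-miR-23clus KO, 479 TPM in miR-26a KO and 474 TPM in the mimic library.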

How the data were processed

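QuantSeq 3′ mRNA libraries were read by the authors as single-end reads of 75 bases, without filtering of low-quality reads, and mapped to mm10 (GRCm38.p6). The aligner, counting tool and strand setting are not given in the sources used here. Estimated counts were deposited for 3 libraries, as whole reads per gene. TPM values were deposited by the authors for all 4 and were used as they stand.

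Reads of the mimic library were recovered from its TPM values with the TPM worth of 1 read in the other libraries: all 14429 values tested were whole within 0.01 reads, and 588 genes could not be recovered. Recovery, ratios and intervals were tested on simulated data. A count of 0 allows up to 3 reads, or at most 0.000224% of a library. Samples were grouped by their labels. Seed matches used the longest annotated 3′ UTR of each gene in the GENCODE annotation of GRCm38. List medians used log2(TPM + 0.5) and genes averaging 1 TPM or more.

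The 9 factors and the gene lists were chosen with earlier results of these data known. Of each list, genes named were those with the most reads, the largest or smallest ratio, or, after their values were seen, single genes such as Cbfb, Mef2a, Mef2d, the SOX and SP paralogues, Col9a2, Col9a3, Matn3, Mmp13, Hdac4, Fabp4 and the named hypertrophic genes. Alternatives were read scaling, TMM (edgeR 4.0.16) and DESeq2 (1.42.0) factors, other filters, added TPM, and another reference. Python 3.11.15 and R 4.3.3 were used.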

Additional observations from a re-analysis of the deposited data

How the results depend on the processing

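No paired analysis was possible because no condition has more than 1 library. Over scaling by total reads, TMM and DESeq2 factors and 0.5 or 1 TPM added, the ratio of every factor stayed within its own counting interval. The 3 read scalings ended the interval calls of Sox9 and no others, so the factors with an interval excluding 1 went from 5 to 4 in Cart-miR-23clus KO against WT and from 2 to 1 in the mimic comparison, and stayed at 4 in miR-26a KO against WT. In Cart-miR-23clus KO against WT, Runx3, Sp7 and Mef2c stayed below 0.5 under these and under both other read filters, 0 factors were past 2-fold with miR-26a KO as the reference and 2 (Runx3 lower, Runx1 higher) with the mimic library, and 5 were counted when an interval excluding 1 replaced the 2-fold limit. In miR-26a KO against WT the count of 2 fell to 1 with TMM factors, DESeq2 factors, at least 20 reads in each library, or 0.5 or 1 TPM added, each time without Dlx5, and became 4 by interval. In the mimic comparison it went from 0 to 2 by interval.

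Over all genes, counts past 2-fold were 872, 704 and 317 in the 3 comparisons. They became 2489, 2205 and 1700 without a read filter, 245, 169 and 27 when both libraries needed 20 reads, and 2299, 1875 and 958 by interval, and the last comparison fell to 171 with 1 TPM added. With miR-26a KO as the reference for Cart-miR-23clus KO, 701 genes were past 2-fold, and 678 with the mimic library. The alternatives over all genes, the mimic reference and the interval counts by scaling were chosen after seeing the data. Without the limit on mean TPM the median log2 ratio of bone genes was -1.59 for Cart-miR-23clus KO and -0.39 for miR-26a KO, where genes without reads entered it.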
